A study of Homo sapiens with 3 samples.

Results

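Intestinal lineage genes were described in HT29, a widely used human colorectal cancer line, whose cells carried either a lentiviral miR-146a expression construct (2 arrays) or the empty vector (1 array). The 39 genes chosen are markers and regulators of enterocytes, the absorptive cells, and of goblet, enteroendocrine and Paneth cells, the secretory cells of the gut lining. They were taken through every probe set that the platform annotation gives to one of them alone, low signals included, which found 74 probe sets of 37 genes among 54613 probe sets and 19775 genes in all. HNF4A, a nuclear receptor of gut and liver, and NEUROD1, an enteroendocrine transcription factor, had no probe set named to them and were not analysed here. Both kinds of cell were grown alike, and the labels do not say whether they were pools or single clones, which promoter drove the microRNA, or whether the 2 miR-146a samples were cultured separately. The p-values below therefore reflect array-to-array spread that may be purely technical, and the vector was measured once.

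In the intestinal epithelium, stem cells in the crypts give rise to absorptive and secretory daughters. Caudal-type homeobox factors (CDX1, CDX2), GATA factors and HNF4 nuclear receptors maintain intestinal identity and drive enterocyte genes such as brush border enzymes, whereas ATOH1 commits cells to the secretory fate and SPDEF to goblet and Paneth maturation. HT29 cells are largely undifferentiated in standard medium, yet they can take on enterocyte-like or goblet-like features under selective culture. miR-146a is a microRNA best known for restraining innate immune signalling. Its usual mature form is shown because it is the agent that sets the 2 kinds of cell apart, with the seed (bases 2 to 8) in capitals, from RefSeq on GRCh38.p14 at chr5:160485372-160485393 (plus strand).
hsa-miR-146a-5p: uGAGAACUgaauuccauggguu

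All values are log2 values made by RMA, and the arrays were closely matched, with medians of 5.14 and 5.12 in miR-146a replicates 1 and 2 and 5.13 in the vector. With 3 arrays, precision is limited throughout. A probe set is called above the median when the average of its miR-146a mean and its vector value exceeds 5.13, the median of all probe sets, and no detection calls came with the values. The labelled cell type was checked against its markers, and all 10 genes listed for epithelium and colon cancer lines lay above the median, with EPCAM, a defining epithelial marker, at 12.93 and 12.96 in the miR-146a arrays against 12.95 in the vector. They were not all level between the groups. CEACAM5, a colon cancer surface antigen, read 7.16 and 7.14 against 8.50, a log2 difference of -1.35 (adjusted p = 3.6e-19 in limma with the unequal-replicate prior described below, 0.0964 with the usual one), larger in size than at any of the 74 member probe sets. Its other probe set above the median differed by 0.00. The keratins KRT20 and KRT19 differed by -0.24 and -0.08. Of 7 fibroblast genes 3 lay above the median, namely COL1A1, THY1 and, barely, DCN, while COL3A1 was among those below it. COL1A1 read 7.17 in both miR-146a arrays against 7.33 in the vector. Of 4 measured leukocyte genes 2 lay above the median, LYZ (itself a Paneth cell gene) and CD14. CD14 read 6.41 and 6.23 against 6.15, while PTPRC read 3.36 and 3.30 in the miR-146a arrays against 3.43 in the vector. RNA integrity controls differed between the groups, since log2 differences from the vector were -0.18 to -0.32 at the 5′ probe sets of ACTB and GAPDH and -0.03 to 0.05 at their 3′ probe sets. Their part in the differences below was not tested.

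A limited set of lineage genes was lower in the miR-146a cells at some or all of their probe sets, and most of the others lay near the vector. No member passed limma with its usual prior, as given below. The surface peptidase DPP4, carbonic anhydrase CA2, the intestinal cadherin CDH17, the goblet cell lectin REG4, lysozyme (LYZ) and the chaperone clusterin (CLU) differed by -0.41 to -0.87 on the log2 scale at the probe sets concerned. Other probe sets of REG4, LYZ and CLU differed by -0.11 to 0.06. The highest difference of any member was 0.31. Of the 74 member probe sets, 32 (43.2%) lay below the vector in both miR-146a arrays, against 28.9% of all probe sets, and 17 (23.0%) were higher in both, against 29.1% of all probe sets. At least 1.5-fold lower in both arrays were 6 probe sets of 4 genes (8.11%), against 0.485% of all probe sets, while 0 reached 1.5-fold in the other direction, against 0.293%. Probe sets of 1 gene read transcripts of the same gene, and both differences share the single vector array, so these counts are not made of independent readings. With 1 probe set per gene (that of highest average signal), 15 of 37 genes (40.5%) were lower in both arrays and 8 (21.6%) higher in both, against 27.0% and 33.1% of all genes. The median log2 difference was -0.03 over member probe sets and 0.00 over all. In these bulk samples, fewer cells of a type and less RNA per cell cannot be told apart.

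**Figure D1:**
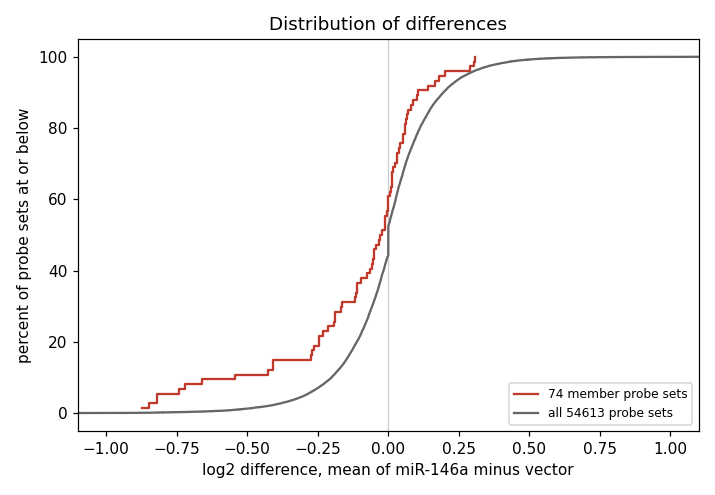
Cumulative share of probe sets (percent, y axis) by log2 difference between the mean of the miR-146a arrays and the vector array (x axis), for the 74 member probe sets and for all 54613. The member curve runs above the other over nearly all of its range, which spans -0.87 to 0.31, and the gap is widest to the left of 0.

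The test was limma over all probe sets with Benjamini-Hochberg adjustment at 0.05, and it called 0 of 54613 probe sets (0%) and so 0 members, with a smallest adjusted p of 0.0964. At an unadjusted p under 0.05 in this limma fit stood 18 of the 74 member probe sets, 11 lower and 7 higher. Of all 54613 probe sets, 11058 stood there, 5588 lower and 5470 higher. Exactly equal values in the 2 miR-146a arrays (tolerance 0) occurred at 10 member probe sets and at 19.3% of all, and the spread in this test comes from that pair of arrays alone. Limma was therefore also run with its variance prior taken only from probe sets whose 2 values differ, called the unequal-replicate prior below. With it, 8 member probe sets of 6 genes passed as lower and 0 as higher, against 1.94% of all probe sets lower and 1.38% higher. With the usual prior the adjusted p of these 8 ran from 0.0964 to 0.435. The unequal-replicate prior gave every probe set the same SD of 0.112 and takes the single vector array to vary like the miR-146a pair. Fitted only on the 27306 probe sets above the median, it called 10 of 40 member probe sets lower, again of 6 genes, and 0 higher, against 4.78% lower and 4.14% higher there. These 6 genes are the ones named above.

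**Figure D2:**
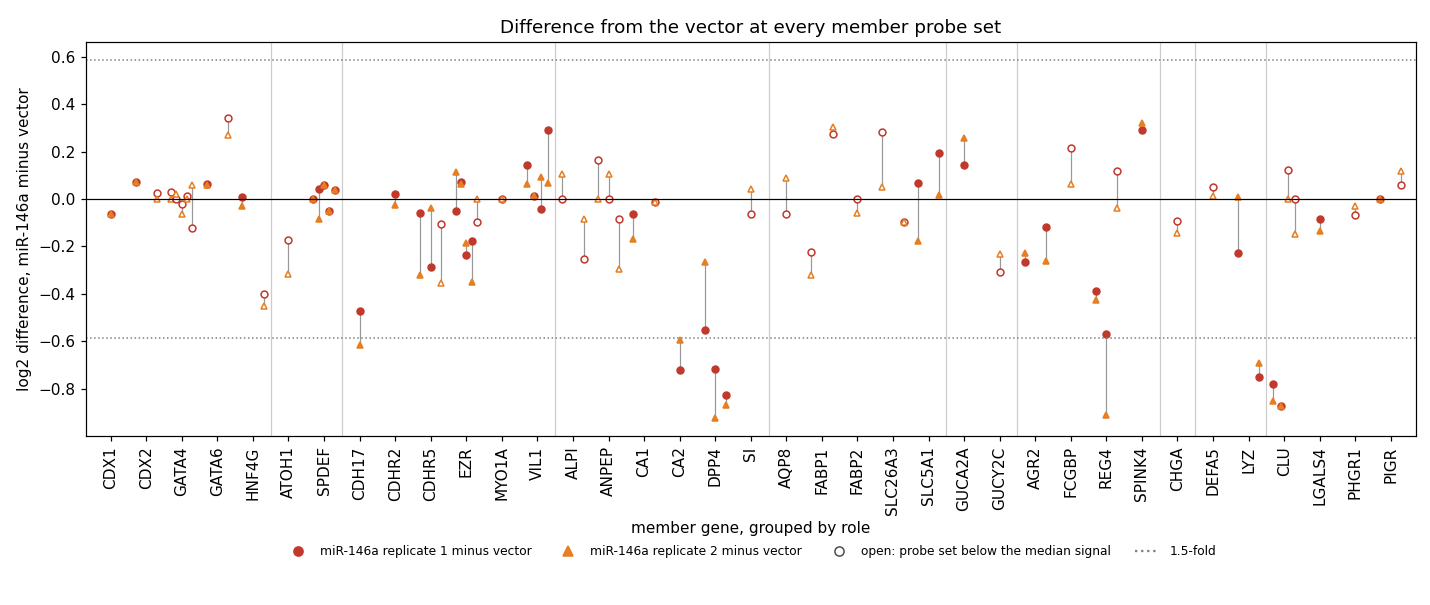
Log2 difference from the vector (y axis) in miR-146a replicate 1 (circles) and replicate 2 (triangles) at all 74 member probe sets, by gene and role, with open symbols for probe sets below the median signal and dotted lines at 1.5-fold. DPP4, CA2, LYZ and CLU are the genes with a probe set past the lower line in both arrays, and no probe set reaches the upper line.

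The transcription factors of intestinal identity were close to the vector, and of the 12 probe sets of the enterocyte factors 3 were lower and 3 higher in both arrays (median 0.01). Beside this and the probe set counts by role below stand 28.9% of all probe sets lower and 29.1% higher in both arrays. CDX2, which specifies intestinal fate, read 5.70 and 5.70 in the miR-146a arrays against 5.63 in the vector at its higher probe set, and 4.04 and 4.01 against 4.01 at its other one. CDX1 read 6.59 in both miR-146a arrays and 6.65 in the vector. GATA6, a zinc finger factor active along the gut, read 9.54 and 9.53 in the miR-146a arrays against 9.48 in the vector. The log2 differences of the higher probe sets of these 3 genes were -0.06 for CDX1, 0.07 for CDX2 and 0.06 for GATA6, each of the same sign in both arrays. The second GATA6 probe set, below the median, read 5.07 and 4.99 against 4.72, the highest difference of any member (0.31, adjusted p = 0.298 in limma with the unequal-replicate prior). HNF4G, the intestinal paralog of HNF4A, read 5.97 and 5.94 against 5.96 at the probe set above the median, and 2.96 and 2.91 against 3.36 at the other, so its probe sets did not agree. GATA4, a factor of the proximal intestine, had 5 probe sets, all below the median, with differences between -0.04 and 0.02. Of the 3 secretory factors, SPDEF was measured by 5 probe sets above the median, whose differences ran from -0.05 to 0.06, and the highest of them read 8.23 in all 3 arrays. The names of all 5 end in x_at, and whether they read SPDEF alone was not tested. At 213441_x_at, 220192_x_at, 214403_x_at and 213442_x_at the 2 miR-146a arrays held equal values. ATOH1 was below the median at 4.54 and 4.40 in the miR-146a arrays against 4.71 in the vector, lower in both.

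Structural genes of the brush border, the microvillus-covered apical surface of enterocytes, lay mostly close to the vector, apart from the adhesion protein CDH17, and of their 15 probe sets 6 were lower and 4 higher in both arrays. VIL1 (villin), which bundles actin in microvilli, read 9.40 and 9.32 in the miR-146a arrays against 9.26 in the vector, and its 4 probe sets differed by 0.01 to 0.18. EZR (ezrin), the linker between actin and the membrane, read 10.01 and 10.18 against 10.07. Its miR-146a values lay on either side of the vector, and its 5 probe sets ranged from -0.26 to 0.07. CDHR5, a protocadherin that links the tips of microvilli, was lower at all 3 of its probe sets, with 6.39 and 6.13 against 6.45 at the highest (log2 difference -0.19, adjusted p = 0.773 in limma with the unequal-replicate prior). Its partner CDHR2 read 5.70 and 5.65 against 5.68, and the brush border myosin MYO1A, below the median, read 4.38 in every array. CDH17, the liver-intestine cadherin, read 5.39 and 5.24 in the miR-146a arrays against 5.86 in the vector, lower in both, as were 28.9% of all probe sets. Its mean of 5.31 ± 0.10 (SD, n = 2) was 1.46-fold lower than the vector, which passed limma with the unequal-replicate prior (adjusted p = 0.00512) and not limma with its usual prior (adjusted p = 0.284). CDH17 was read by a single probe set.

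Among the enterocyte enzymes, DPP4 and CA2 passed as lower with the unequal-replicate prior only, and the other 4 genes were weak or near the vector. Of their 12 probe sets 8 were lower in both arrays and 0 were higher (median -0.14), against 28.9% and 29.1% of all probe sets. With 1 probe set per gene, 3 of the 6 genes were lower and 0 higher. DPP4, a serine peptidase of the apical membrane that trims peptides and incretin hormones, read 8.95 and 9.24 in the miR-146a arrays against 9.50 in the vector at 203717_at. At 211478_s_at it read 7.03 and 6.83 against 7.75, and at 203716_s_at 6.69 and 6.65 against 7.51. All 3 probe sets put both miR-146a arrays below the vector, with differences of -0.41, -0.82 and -0.85. The last of these was 1.80-fold lower (6.67 ± 0.03, SD, n = 2) and passed limma with the unequal-replicate prior (adjusted p = 3.54e-07), as did the second (adjusted p = 9.49e-07). The first did not over all probe sets (adjusted p = 0.0729) and did among those above the median (adjusted p = 0.038). With the usual prior none of the 3 passed limma (adjusted p = 0.586, 0.27 and 0.0967 in the order above).

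CA2, a cytosolic carbonic anhydrase that supplies bicarbonate and protons for ion exchange, read 5.14 and 5.27 in the miR-146a arrays against 5.86 in the vector. Its miR-146a values thus sat at the median of all probe sets, and the difference of -0.66 (mean 5.20 ± 0.09, SD, n = 2, 1.58-fold lower) passed limma with the unequal-replicate prior (adjusted p = 0.000239) and not with the usual one (adjusted p = 0.223). CA1, the colonic isoenzyme, read 5.55 and 5.44 against 5.61, a difference of -0.12, and its second probe set lay at 2.96 in both miR-146a arrays and 2.97 in the vector. ALPI (intestinal alkaline phosphatase), ANPEP (aminopeptidase N) and SI (sucrase-isomaltase), classical products of the mature brush border, lay below the median at all 6 of their probe sets. SI read 2.17 and 2.27 in the miR-146a arrays against 2.23 in the vector, near the lowest value of the whole table (1.95).

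The genes of absorption and of the guanylin axis were low or close to the vector, with 2 of 8 absorption probe sets lower and 3 higher in both arrays. SLC5A1, the sodium-glucose cotransporter, was the only one of the 5 absorption genes above the median, with 6.10 and 5.86 in the miR-146a arrays against 6.04 in the vector at one probe set and 5.86 and 5.68 against 5.66 at the other. The fatty acid binding proteins FABP1 and FABP2, the chloride-bicarbonate exchanger SLC26A3 and the water channel AQP8 lay between 2.59 and 4.65 in all arrays. The 2 probe sets of FABP1 differed from the vector in opposite directions (-0.27 and 0.29), both below the median. GUCA2A encodes guanylin, the peptide that stimulates fluid secretion through the receptor guanylate cyclase GUCY2C. Guanylin read 5.48 and 5.60 in the miR-146a arrays against 5.34 in the vector, higher in both (0.20, adjusted p = 0.736 in limma with the unequal-replicate prior). GUCY2C read 3.16 and 3.23 against 3.46, lower in both and below the median.

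Goblet cell products did not go one way, with 4 of 7 probe sets lower and 2 higher in both arrays. REG4, a secreted C-type lectin of goblet and enteroendocrine cells, read 7.95 and 7.91 in the miR-146a arrays against 8.34 in the vector at 223447_at. Its second probe set, 1554436_a_at, read 6.60 and 6.26 against 7.17, and the remaining one lay below the median with 3.65 and 3.49 against 3.53. The first 2 were lower in both arrays, with differences of -0.41 and -0.74, and the second (6.43 ± 0.24, SD, n = 2) passed limma with the unequal-replicate prior (adjusted p = 1.63e-05, against 0.435 with the usual one), where the first passed only among probe sets above the median (adjusted p = 0.0753 over all and 0.017 there). In replicate 1 the second differed by -0.57, just short of 1.5-fold. Over all probe sets, the unequal-replicate prior used an SD of 0.112 for this probe set, smaller than its own SD of 0.24. AGR2, an endoplasmic reticulum protein needed for mucin folding, read 11.37 and 11.41 against 11.64, and 7.86 and 7.72 against 7.98 at its other probe set. Both were lower in both arrays (-0.25 and -0.19), and neither passed (adjusted p = 0.528 and 0.777 in limma with the unequal-replicate prior).

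SPINK4, a protease inhibitor made by goblet cells, was higher in both arrays, at 5.98 and 6.01 against 5.69 in the vector (0.30, adjusted p = 0.306 in limma with the unequal-replicate prior). FCGBP, the IgG-Fc-binding protein of mucus, lay below the median at 4.94 and 4.79 against 4.72. Neither gene has a second probe set.

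The enteroendocrine product CHGA (chromogranin A) and the Paneth cell defensin DEFA5 lay below the median, CHGA at 3.98 and 3.93 in the miR-146a arrays against 4.07 in the vector, DEFA5 at 4.06 and 4.02 against 4.01. LYZ, the bacteriolytic enzyme of Paneth cells and leukocytes, gave 2 readings that disagreed. At 213975_s_at it read 12.72 and 12.96 in the miR-146a arrays against 12.95 in the vector, on either side of it. At 1555745_a_at it read 11.04 and 11.10 against 11.80, a difference of -0.72 (1.65-fold lower, 11.07 ± 0.04, SD, n = 2) that passed limma with the unequal-replicate prior (adjusted p = 3.2e-05) and not with the usual one (adjusted p = 0.125), while the first passed neither (adjusted p = 1 and 0.796). Of the other leukocyte genes, PTPRC and CD3E lay below the median, and CD14 lay above it and was higher in both miR-146a arrays (0.17). Their part in the LYZ readings was not tested.

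Of the 4 remaining epithelial genes, CLU alone was far from the vector. CLU encodes clusterin, a secreted chaperone that is also raised in regenerating intestinal crypts of the mouse. Its 2 probe sets above the median read 7.78 and 7.71 in the miR-146a arrays against 8.56 in the vector, and 7.44 in both miR-146a arrays against 8.31. Both miR-146a arrays lay below the single vector array at each, as they did at 28.9% of all probe sets. The second difference, -0.87, was the lowest of all member probe sets (1.83-fold lower). Both passed limma with the unequal-replicate prior (adjusted p = 1.04e-06 and 1.2e-07) and neither passed with the usual prior (adjusted p = 0.127 and 0.0964). At the second the miR-146a arrays hold the same value, so that fit has no spread of its own there. The other 2 probe sets of CLU lay below the median, at 4.13 and 4.01 against 4.01, and at 3.68 and 3.54 against 3.68. LGALS4 (galectin-4), a lectin of the apical membrane, read 12.06 and 12.00 against 12.14, PIGR, which carries IgA across the epithelium, read 5.38 in all 3 arrays at its probe set above the median, and PHGR1, a short protein of gut epithelium, lay below the median at 4.31 and 4.35 against 4.38.

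**Figure D3:**
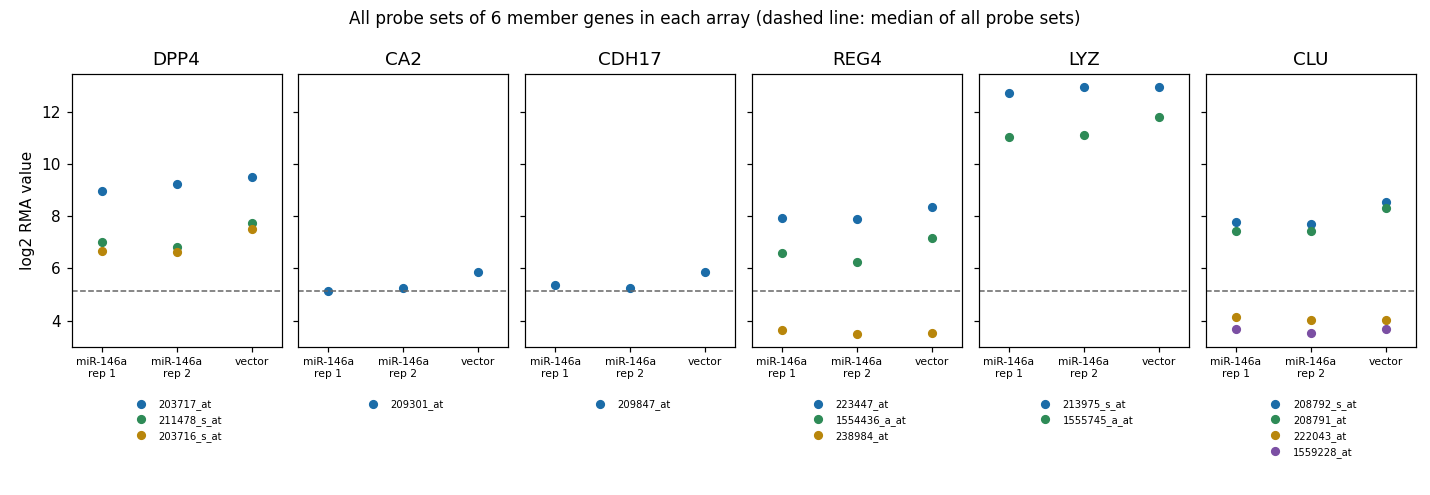
Log2 values (y axis) of every probe set of the 6 genes that passed limma with the unequal-replicate prior, in miR-146a replicates 1 and 2 and the vector array, each point being 1 array. All 3 probe sets of DPP4 and both of CLU above the dashed median line lie lower in the miR-146a arrays than in the vector, while the upper probe set of LYZ does not.

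**Figure D4:**
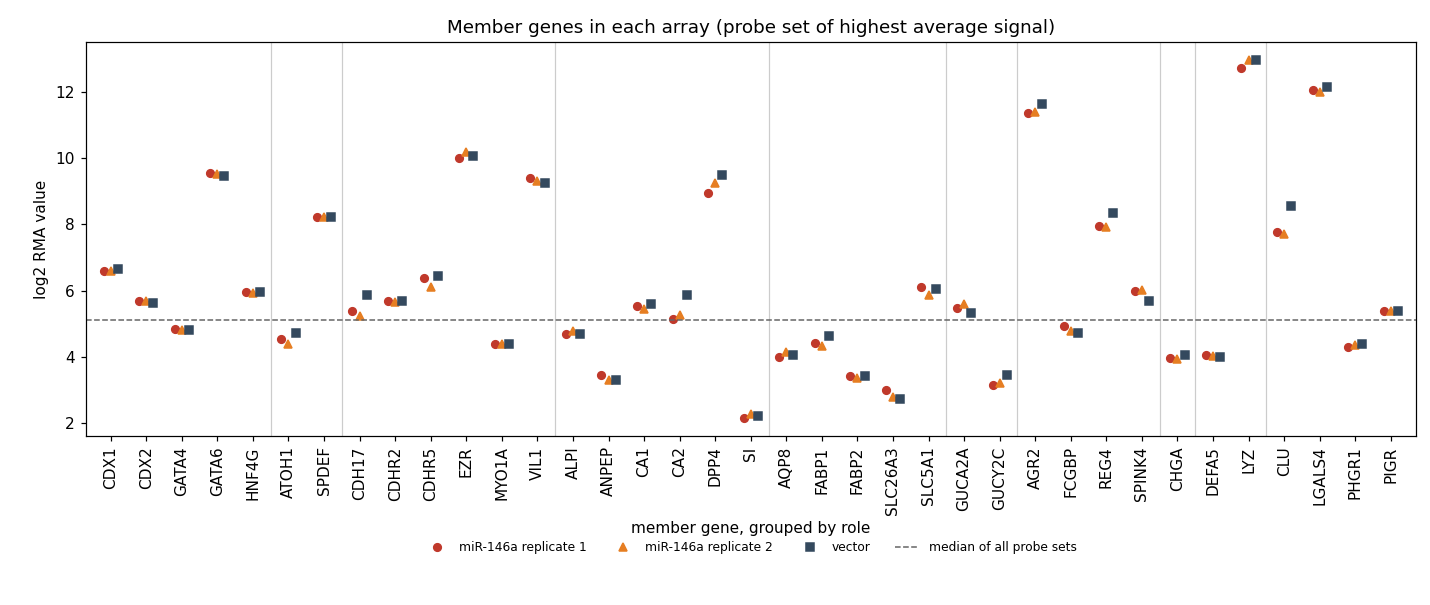
Log2 value (y axis) of each of the 37 member genes, grouped by role, at its probe set of highest average signal in the 2 miR-146a arrays and the vector array, with the median of all probe sets dashed. Of the 37 genes, 22 lie above the line, and levels of different probe sets are not comparable with each other.

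Altogether 22 of the 37 genes had a probe set above the median and 15 had none. Those 15 were GATA4, MYO1A, FABP1, FABP2, ALPI, ANPEP, SI, SLC26A3, AQP8, GUCY2C, ATOH1, FCGBP, CHGA, DEFA5 and PHGR1, whose 24 probe sets read between 2.17 and 4.94 in all arrays, with differences from -0.27 to 0.29. Among them GATA4 and ATOH1 are transcription factors, and FABP1, FABP2, ALPI, ANPEP and SI are products of mature absorptive cells. No detection call tells whether these signals exceed background, so neither presence nor absence of change can be read from them.

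Promoter sequence was looked at for members that had more than 1 probe set above the median, all lower in both arrays. DPP4, REG4 and AGR2 met this and had an entry among the RefSeq promoters on GRCh38.p14, which cover 250 bases before to 50 bases after a gene's start, here at chr2:162074166-162074465, chr1:119811411-119811710 and chr7:16804950-16805249, all on the minus strand. Capitals mark matches, on either strand, to TTTATG (a core bound by caudal-type factors), GATAA (GATA factors), AAAGTCC (part of an HNF4 site) and CAGCTG (an E-box of the kind bound by ATOH1 with its partner).
DPP4: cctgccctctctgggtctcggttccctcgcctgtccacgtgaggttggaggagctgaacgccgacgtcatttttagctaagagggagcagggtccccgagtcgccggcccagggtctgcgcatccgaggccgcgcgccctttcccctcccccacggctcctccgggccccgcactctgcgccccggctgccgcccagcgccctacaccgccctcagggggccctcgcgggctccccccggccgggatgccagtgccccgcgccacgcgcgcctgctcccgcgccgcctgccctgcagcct
REG4: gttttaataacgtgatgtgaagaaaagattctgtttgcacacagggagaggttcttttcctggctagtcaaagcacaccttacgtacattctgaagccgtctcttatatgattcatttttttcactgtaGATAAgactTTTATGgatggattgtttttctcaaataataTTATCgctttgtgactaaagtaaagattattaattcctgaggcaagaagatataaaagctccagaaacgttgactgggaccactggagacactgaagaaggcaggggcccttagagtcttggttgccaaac
AGR2: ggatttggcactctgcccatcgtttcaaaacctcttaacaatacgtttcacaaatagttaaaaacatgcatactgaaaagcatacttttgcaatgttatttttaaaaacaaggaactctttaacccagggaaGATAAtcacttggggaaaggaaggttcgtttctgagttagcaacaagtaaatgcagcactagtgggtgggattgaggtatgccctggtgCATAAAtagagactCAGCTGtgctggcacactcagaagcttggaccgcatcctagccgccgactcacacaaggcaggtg
The DPP4 window held 0 matches, and the REG4 and AGR2 windows held 3 each, with no overlap between motifs. REG4 had the caudal-type core and 2 copies of the GATA core, and AGR2 had 1 each of the caudal-type, GATA and E-box letters. The caudal-type core TTTATG occurs in 10.6% of the 35116 promoters, GATAA in 22.7%, AAAGTCC in 3.71% and CAGCTG in 17.9%. Of the 26 members with a promoter entry (30 promoters, HNF4A included), 4 held TTTATG (AGR2, FABP1, REG4 and SI), 12 GATAA, 4 AAAGTCC and 5 CAGCTG. These are counts of genes and the percentages are of promoters, so the 2 are not directly comparable. FABP1 and SI, which hold TTTATG too, lay below the median signal in all arrays.

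Further genes of the same lineages, outside the 39, were read through 1 probe set each, and none passed limma with its usual prior. Of 41 other enterocyte and colonocyte genes, 16 were lower and 8 higher in each array (median log2 difference -0.01), against 27.0% lower and 33.1% higher among all genes, whose median was 0.00. CA12, a membrane-bound carbonic anhydrase, was the lowest of those named, at 8.64 and 8.49 in the miR-146a arrays against 9.02 in the vector (adjusted p = 0.0283 in limma with the unequal-replicate prior), though its 5 other probe sets above the median ran from -0.41 to 0.00. PLS1, a microvillar actin bundler, ESPN (espin), another, and the keratin KRT20 followed with differences of -0.28, -0.28 and -0.24. They did not pass limma with the unequal-replicate prior (adjusted p = 0.401, 0.388 and 0.539 in that order). The other ESPN probe set above the median differed by -0.0075. Of 15 other goblet cell genes, 6 were lower and 3 higher (median 0.02). FOXA3, a forkhead factor of goblet cells, read 8.03 and 7.91 against 7.46 in the vector and passed as higher (adjusted p = 0.0116 in limma with the unequal-replicate prior), TFF3, a trefoil peptide, differed by 0.39 (adjusted p = 0.102 over all probe sets, and 0.0219 among those above the median, where it passed as higher too), and AGR3, the paralog of AGR2, by -0.31 (adjusted p = 0.297). The kallikrein KLK1 differed by -0.20.

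The enteroendocrine genes were mostly low in signal, while most of the Paneth cell genes outside the members lay above the median. Beside the counts of lower and higher genes below stand 27.0% of all genes lower and 33.1% higher in both arrays. Of 18 measured enteroendocrine genes 3 lay above the median, 5 were lower and 6 higher in both arrays, and ISL1, a LIM homeobox factor, differed by 0.27 and the vesicle protein SYP by 0.21. PAX4, a homeobox factor, differed by -0.07. Of 5 other Paneth cell genes, 4 lay above the median, and 3 were lower and 0 higher in both arrays, of which MMP7, a protease that activates defensins in mouse Paneth cells, was the lowest at 10.56 and 10.55 in the miR-146a arrays against 11.58 in the vector. DEFA6 (log2 difference -0.02) and PLA2G2A (log2 difference -0.03) lay near the vector. The signal of DEFA6 was barely above the median of 5.13, at 5.19 in both miR-146a arrays and 5.21 in the vector. Of these genes MMP7 passed limma with the unequal-replicate prior (adjusted p = 1.56e-10). Of 11 other intestinal transcription factors 4 were lower and 3 higher. FOXA1, a pioneer factor, read 6.94 and 7.09 against 6.60, and its other probe set above the median differed by 0.75 (adjusted p = 0.0685 for the first in limma with the unequal-replicate prior over all probe sets, 0.0201 among those above the median). Its relative FOXA2 differed by 0.16 at each of its probe sets above the median, and ONECUT2 and EHF by -0.16 and -0.11. The 5 other probe sets of EHF above the median ran from -0.92 to -0.03, the lowest of them below any member probe set, and the 3 of ONECUT2 ran from -0.28 to 0.09.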

How the data were processed

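Labelled cRNA from the HT29 cells was hybridised to Affymetrix arrays, per the labels' protocols. The deposited log2 values (54675 probe sets, 54613 besides controls, in 3 arrays) came from RMA according to the submitters' processing notes, and ran from 1.95 to 14.60. No RMA version is stated in the labels. Probe sets were named by the platform annotation, with symbols updated through Entrez numbers: 41091 had 1 gene, 1801 several and 11721 none here. Those with several or none were not named.

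The comparison was miR-146a minus vector, with limma 3.58.1 (lmFit, eBayes, R 4.3.3) over all non-control probe sets, two-sided, with Benjamini-Hochberg adjustment, an adjusted p of 0.05 as threshold and 1 residual degree of freedom. SDs are of the 2 miR-146a arrays. Every member is reported, and up to 4 genes of each other lineage list are named, by the smaller of their 2 array differences. EPCAM, CEACAM5, KRT19, COL1A1, COL3A1, THY1, DCN, PECAM1, PTPRC, CD3E and CD14 are given as cell type markers. Members, lists, tests and alternatives were chosen with earlier results of these data known, and the unequal-replicate prior restricted to probe sets above the median was added later. Alternatives were further normalization, filters on low signal, gene-level values, other priors and leaving out a miR-146a array. The fits were tested on simulated data. All 3 simulated arrays were drawn with the same SD, so the assumption about the spread of the vector array could not be checked there. Promoter and microRNA sequences are RefSeq's on GRCh38.p14. Figures used matplotlib 3.10.9.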

Additional observations from a re-analysis of the deposited data

How the results depend on the processing

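Limma called 0 members and 0 probe sets with cyclic loess, quantile normalization, either filter, 1 probe set per gene, gene means or an intensity trend. The prior from unequal replicates called 8 member probe sets and 1815 in all, and 10 and 2436 when fitted above the median only. The 6 member probe sets at least 1.5-fold apart in both arrays became 2 genes with 1 probe set per gene or with gene means, where fewer features are counted, and 0 at 2-fold. They numbered 6 to 8 when either miR-146a array was left out, with no test possible. The members' median log2 difference was -0.11 above percentile 70, where only stronger signals are kept, and stayed between -0.03 and -0.06 elsewhere. The filters, the other priors and 1 probe set per gene leave each gene's difference as it was, so no sign could change there. Nor could it with gene means for the 17 genes with 1 probe set. Of 335 values of single genes under the alternatives, these fixed ones included, 14 changed sign, for 11 genes. With all probe sets of a gene averaged these were GATA4 (-0.009), EZR (-0.0856), FABP1 (0.0076), ALPI (-0.0575), ANPEP (-0.0186) and SLC5A1 (0.0245), and with quantile normalization CDHR2 (0.0095). Without 1 or the other miR-146a array the values ran from -0.0623 to 0.0409 for SI, -0.227 to 0.0079 for LYZ, -0.029 to 0.0067 for HNF4G, -0.0522 to 0.113 for EZR, -0.0265 to 0.0209 for CDHR2, -0.179 to 0.0658 for SLC5A1 and -0.0642 to 0.0899 for AQP8. The cause was not tested. No paired analysis was possible because the vector has 1 array. Signals near or below the median limit what can be seen of the weakly measured members.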

Other observations

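Tuft cells, chemosensory cells of the gut lining, were not among the lineages above. Of 7 genes listed for them, 3 lay above the median signal, 3 were lower in each miR-146a array and 0 were higher, against 27.0% lower and 33.1% higher among all genes. PTGS1, the constitutive cyclooxygenase, read 7.34 and 7.18 in the miR-146a arrays against 7.75 in the vector (1.40-fold lower, adjusted p = 0.0174 in limma with the unequal-replicate prior), and its 3 other probe sets above the median ran from -0.62 to -0.12. AVIL (advillin), an actin-binding protein, differed by -0.07.

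Values equal to the last digit occurred among the lineage genes too, at a smaller share than over all probe sets. The 2 miR-146a arrays were equal at 10 member probe sets (13.5%), against 19.3% of all, and all 3 arrays were equal at 3, of SPDEF, MYO1A and PIGR (4.05%, against 8.30% of all). The vector equalled at least 1 miR-146a array at 14 member probe sets.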
